A study of Mus musculus with 5 samples.

Results

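The genes described here encode the proteasome, its activators and its assembly factors, and the measurement is how much Pou4f1 signal lay at their transcript starts in the embryonic mouse retina. They were taken by symbol from the protein-coding genes of GENCODE M21: every symbol that begins with Psma, Psmb, Psmc, Psmd, Psme, Psmf or Psmg followed by a number, which gave 49 of 21951 protein-coding genes. Psmc3ip, a recombination factor whose symbol only begins in this way, was kept out. A gene was counted as having a region where the midpoint of a called region lay within 1 kb of any of its annotated transcript starts. By this rule 13 of the 49 proteasome genes had a region, each had 1, and these 13 regions were 13 of the 8038 regions of the table and of the 4948 regions at coding starts.

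The values come from CUT&Tag, in which an antibody on chromatin brings a transposase that cuts and tags the DNA beside it. All libraries were made from wild-type retinas at E16.5, late in gestation, with 4 retinas pooled and dissociated, so they average over every retinal cell type and over the pooled animals. There were 2 libraries with rabbit anti-Pou4f1 and 2 with rabbit IgG, an antibody without a target in the retina. The table gives a mean signal per region and no expression, so the tissue label could not be set against marker levels. The IgG libraries were sparse: over all regions the medians were 184 (Pou4f1 replicate 1) and 155 (replicate 2) for Pou4f1, but 4.78 for the IgG library so named and 7.96 for the other, which is named as a negative control. Each set of 4 values keeps this order of libraries. If a read covers 80 bases, these medians correspond to 47.9, 31.0, 0.938 and 1 reads, and the library named IgG was at 0 in 3716 regions.

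Pou4f1 (Brn3a) is a POU-domain transcription factor of differentiating retinal ganglion cells, the neurons that carry visual information to the brain. The proteasome is the protease that degrades ubiquitin-tagged proteins in every cell. Its 20S core is a barrel of stacked rings, the outer ones built from alpha subunits that gate the entry and the inner ones from beta subunits, of which Psmb5, Psmb6 and Psmb7 carry the catalytic sites. The 19S regulatory particle caps the barrel: its ATPases (Psmc genes) unfold the substrate, and its non-ATPase subunits (most Psmd genes) bind and deubiquitinate it. In immune cells and after interferon, Psmb8, Psmb9 and Psmb10 replace the catalytic subunits, and the PA28 activator of Psme1 and Psme2 can take the place of the 19S cap. Because the standard subunits are needed in every cell, their genes are commonly used as examples of housekeeping genes.

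The share of proteasome genes with a Pou4f1 region was close to that of all coding genes. It was 26.5% (13 of 49, 95% exact binomial interval 14.9 to 41.1%), and the share over all protein-coding genes, 24.9%, lay inside that interval. These intervals cover counting error over genes only. Other housekeeping lists had 42.9% for cytosolic ribosomal protein genes (33 of 77), 33.3% for mitochondrial ribosomal protein genes (26 of 78) and 37.6% for nuclear respiratory chain genes (32 of 85). The differences between these lists were not tested, and the interval of each overlaps that of the proteasome genes. When a gene's own 5′ end was required in place of any transcript start, Psmb1 and Psmd5 dropped out and the share was 22.4%, beside 22.2% of all coding genes.

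**Figure D1:**
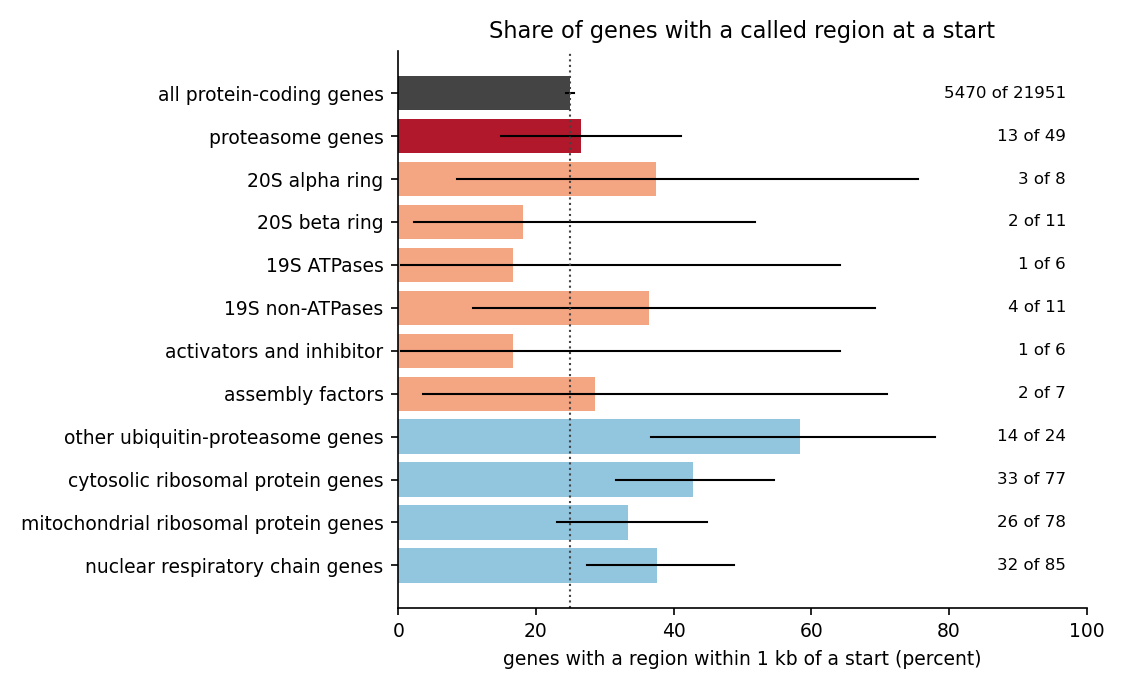
Share of genes with a called region whose midpoint is within 1 kb of a transcript start (horizontal axis, percent), for all protein-coding genes, the proteasome genes, their 6 roles and 4 other lists; bars are shares, lines are 95% exact binomial intervals, numbers are genes with a region of all genes, and the dotted line is the share of all coding genes. The proteasome bar stands at 26.5% and the dotted line at 24.9%, and the line passes through the interval of each of the 6 roles.

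By role, a region was found at 3 of 8 alpha ring genes (Psma1, Psma2, Psma3), 2 of 11 beta ring genes (Psmb1, Psmb3), 1 of 6 ATPases of the 19S particle (Psmc6), 4 of 11 non-ATPases (Psmd1, Psmd3, Psmd11, Psmd12), 1 of 6 activator and inhibitor genes (Psme2) and 2 of 7 assembly factors (Psmd5, Psmg1). The lists are short, and each role's interval spans the share of all coding genes.

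RefSeq promoter entries (GRCm38.p6), read from 250 bases before to 50 after the start, were matched for 41 of the 49 proteasome genes and for 16522 coding symbols. The entries not matched were Psma8, Psmb1, Psmb2, Psmb7, Psmc3, Psmd3, Psmd7 and Psmg2. Of the 17 proteasome genes with a CpG-rich window (GC of at least 55% and observed over expected CpG of at least 0.65), 6 had a region (35.3%, interval 14.2 to 61.7%), beside 47.2% of all coding genes of that kind. Of the 24 others, 5 had one (20.8%, interval 7.13 to 42.2%), beside 12.7%. A CpG-rich window was found at 41.5% of the proteasome genes and 39.8% of all coding genes matched. The CpG shares were counted per gene, over 16539 coding genes, since some genes share a symbol. Over all coding genes it was found at 71.2% of those with a region and 28.5% of those without. A coding start on the opposite strand within 1 kb was another feature that went with a region over all coding genes (48.3% with such a neighbour and 21.6% without). Among proteasome genes 5 of 13 with such a neighbour had a region (Psma2 opposite Mrpl32, Psmb1 opposite Tbp, Psmd1 opposite Htr2b, Psmd5 opposite Cutal and Psme2 opposite Rnf31) and 8 of 36 without, 38.5% and 22.2%. The neighbour could stand at any start of the gene, not only the one with the region. At Psma2 and Psme2 the midpoint of the region also lay within 1 kb of the neighbour's start, and at Psmb1, Psmd1 and Psmd5 it did not.

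The bases before the starts are printed for genes on both sides of the comparison, so that alpha ring genes with a region (Psma1, Psma2) and a 19S gene with one (Psmd12) can be read beside the catalytic genes Psmb5 and Psmb6, which have none. Each stretch is the part of the RefSeq window that lies in no annotated exon, on the strand of the gene. Capitals mark matches, on either strand, to the motifs searched: for Psma1 and Psma2 CCAAT, and for Psmd12, Psmb5 and Psmb6 TGACNNNGC, the core of the antioxidant response element at which Nfe2l1 and Nfe2l2, activators of proteasome genes, bind.
Psma1, chr7:114276119-114276366, minus strand: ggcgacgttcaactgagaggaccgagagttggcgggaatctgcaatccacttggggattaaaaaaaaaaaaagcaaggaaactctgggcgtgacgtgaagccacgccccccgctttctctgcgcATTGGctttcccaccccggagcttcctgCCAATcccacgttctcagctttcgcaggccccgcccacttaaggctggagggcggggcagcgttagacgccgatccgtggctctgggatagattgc
Psma2, chr13:14613166-14613239, plus strand: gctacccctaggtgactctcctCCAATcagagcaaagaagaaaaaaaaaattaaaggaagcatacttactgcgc
Psmd12, chr11:107479278-107479483, plus strand: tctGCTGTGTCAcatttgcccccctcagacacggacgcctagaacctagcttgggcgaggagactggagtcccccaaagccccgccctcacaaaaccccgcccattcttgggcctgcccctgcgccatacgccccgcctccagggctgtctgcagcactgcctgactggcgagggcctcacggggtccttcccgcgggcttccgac
Psmb5, chr14:54618023-54618245, minus strand: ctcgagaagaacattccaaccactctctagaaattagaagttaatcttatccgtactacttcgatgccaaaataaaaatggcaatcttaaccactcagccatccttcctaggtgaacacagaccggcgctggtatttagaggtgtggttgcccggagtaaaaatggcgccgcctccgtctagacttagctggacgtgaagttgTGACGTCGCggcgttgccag
Psmb6, chr11:70525107-70525356, plus strand: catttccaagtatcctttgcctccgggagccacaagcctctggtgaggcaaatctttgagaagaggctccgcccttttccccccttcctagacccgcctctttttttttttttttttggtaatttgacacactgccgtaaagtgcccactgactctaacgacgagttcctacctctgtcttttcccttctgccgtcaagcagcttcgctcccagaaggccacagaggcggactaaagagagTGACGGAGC
None of these stretches holds a match to the POU motif searched here, and the antioxidant response core stands in a window with a region and in windows without one.

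The regions of the table had been called as Pou4f1 over IgG in these same libraries, so a higher Pou4f1 signal follows from that choice and is given as a description. At 12 of 13 the lower Pou4f1 value exceeded the higher IgG value, as it did at 96.5% of all regions, and Psmd11 was the exception. The limma test on log2(signal + 1), 2 libraries against 2, with Benjamini-Hochberg adjustment over all regions, called Pou4f1 higher at 5 of the 13 (38.5%): Psma1, Psmc6, Psmd3, Psmd5 and Psme2. The same test called 64.8% of all regions and 62.0% of the regions at coding starts, and the gap depended on the setting: with a pseudocount of 0.1 it was 5 of 13 beside 43.4% of all regions, and with one of 10 it was 12 of 13 beside 92.6%. The 2 IgG values moved with this. Where both were 0 the test called 1 of 1 proteasome region and 99.7% of regions at coding starts, where 1 of them was 0 it called 0 of 7 and 32.9%, and where neither was 0 it called 4 of 5 and 78.6%. The count also turned on single libraries: it was 1 (Psma1) without Pou4f1 replicate 1, 2 (Psma1 and Psme2) without replicate 2, and 12 without either IgG library. The share called over all regions moved in the same way, to 29.4 and 30.9% without a Pou4f1 library and to 94.4 and 95.9% without an IgG library. Counting only regions past the threshold, 10.2% of the proteasome genes had one, beside 15.7% of all coding genes.

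**Figure D2:**
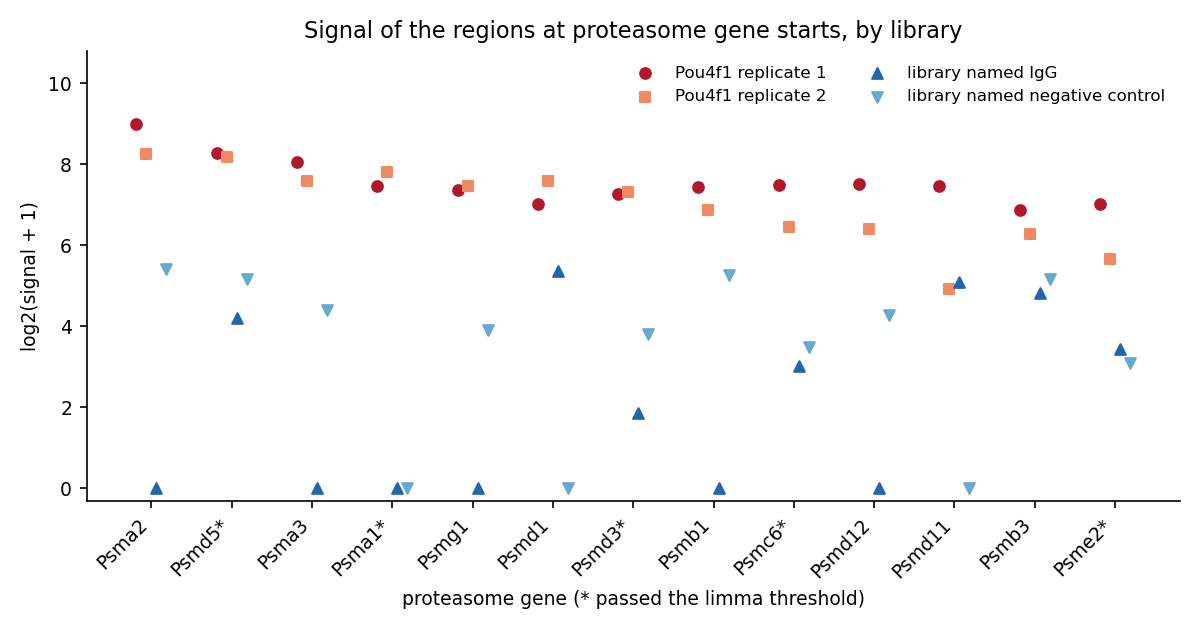
Signal of the 13 regions at proteasome gene starts in each of the 4 libraries (vertical axis, log2 of signal + 1; genes ordered by mean Pou4f1 signal), with circles and squares for Pou4f1 replicates 1 and 2 and triangles for the IgG libraries; asterisks mark the 5 regions that passed the limma threshold. Psma2 has the highest Pou4f1 values, Psmd11 is the gene at which a Pou4f1 value reaches the IgG values, and 8 genes have an IgG library at 0.

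In height, the proteasome regions lay within the range of other coding starts. With Pou4f1 their medians were 174 and 158, beside 183 and 130 over the regions at coding starts. In the IgG libraries it was 2.64 and 14.0, beside 5.52 and 10.3. The ratio of the medians to those of coding starts was 1.09 ± 0.188 (SD over the 2 Pou4f1 libraries). The regions were 906 bp long at the median, against 1023 bp, and had a GC content of 60.0%, against 62.9%. When signal was multiplied by length the ratio was 0.840. Signal in replicate 2 was 0.679 of that in replicate 1 at the median proteasome region and 0.698 at the median coding start.

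Psma1, Psma2 and Psma3 encode subunits of the alpha ring, the gate of the 20S core. The Psma2 region (chr13:14612699-14613708) had the highest signal of the proteasome genes, 510 and 306 with Pou4f1, against 0 and 41.8 with IgG. It ranked 239 of the 4948 regions at coding starts by mean Pou4f1 signal, yet with the IgG libraries apart the log2 difference of 5.92 ± 2.19 (SE) had an adjusted p of 0.082 (limma). The region also lies over the start of Mrpl32, a mitochondrial ribosomal protein gene read in the opposite direction, and the signal cannot be divided between them. Its window holds 4 matches to GCATGCGC, the core of the site of NRF1 (nuclear respiratory factor, not Nfe2l1), of which 2 overlap in the 30 bases shown here with the matches in capitals.
Psma2, chr13:14613105-14613134, plus strand: ggcccctcttGCGCATGCGCaagggtcaaa
The Psma1 region (chr7:114275780-114276421) had a lower signal, 174 and 222, and no signal in either IgG library. It was called, with a log2 difference of 7.63 ± 0.40 and an adjusted p of 0.002 (limma), and a fitted difference against 2 values of 0 depends on the value added before the logarithm. The Psma3 region (chr12:70974605-70975267) had signals of 266 and 191, against 0 and 20.1, with an adjusted p of 0.062. Its midpoint lay 217 bases downstream of the nearest start, farther into the gene than those of Psma1 (17 downstream) and Psma2 (36 upstream). The alpha ring genes without a region were Psma4, Psma5, Psma6, Psma7 and Psma8, the last a testis subunit that stands in for Psma7, and the nearest region lay 12.5 kb from a start of Psma7 and 23.1 kb from one of Psma8.

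No gene for a catalytic subunit had a region, in either the constitutive or the immune set. These genes are few, the share over all coding genes was 24.9%, and the difference was not tested. Psmb5, which carries the chymotrypsin-like site, had its nearest region 14.7 kb away, Psmb6 (caspase-like) 35.8 kb and Psmb7 (trypsin-like) 122 kb. Their immune counterparts Psmb8, Psmb9 and Psmb10 had theirs at 3.18, 14.8 and 70.1 kb, and the thymus subunit Psmb11 at 16.2 kb. The region nearest to Psmb8 and Psmb9 was the same one, chr17:34201951-34203106, which begins past the 3′ end of Psmb8. There the signal was 107 and 208 with Pou4f1 and 98.4 and 95.4 in the IgG libraries, so the lower Pou4f1 value and the IgG values were close together, and the limma adjusted p was 0.329. In the other beta ring genes, Psmb1 (chr17:15497736-15498641) had signals of 172 and 117, against 0 and 37.3 (adjusted p 0.125). Psmb3 (chr11:97702876-97704000) had 116 and 76.4, against 27.1 and 34.8, the smallest log2 difference of the 13 regions at 1.59 ± 0.46, with an adjusted p of 0.054 by limma. Both IgG values at Psmb3 were above 0. Psmb2 and Psmb4, structural subunits of the same ring, had no region.

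The constitutive and immune sets can only be set side by side, and they differ in kind. The constitutive set counted here holds 20S genes only. The immune set holds Psmb8, Psmb9 and Psmb10 of the 20S core and the activator genes Psme1 and Psme2. A region stood at 5 of 14 constitutive 20S genes (35.7%, interval 12.8 to 64.9%) and at 1 of 5 immune genes (20%, interval 0.505 to 71.6%), and neither of the 2 genes restricted to thymus or testis had one. Both intervals span the 24.9% of all coding genes. The one immune gene was Psme2, an interferon-induced subunit of the PA28 activator, and its region (chr14:55590742-55592609) had signals of 129 and 49.3, against 9.80 and 7.61. It was called (log2 difference 3.07 ± 0.67, adjusted p 0.034 by limma) and had the lowest mean signal of the 13, rank 4423 of 4948. The region reached from 1496 bases upstream of the Psme2 start to 371 downstream, with a midpoint 563 bases upstream, and it also covered the start of Rnf31, a subunit of the linear ubiquitin ligase, on the other strand. With a limit of 500 bases in place of 1 kb, Psme2 had no region and the immune count was 0 of 5, beside 23.2% of all coding genes. Psme1, its partner in PA28, had no region of its own: its nearest was this one, 10.9 kb from a start. Psme2b, Psme3, Psme4 and the inhibitor gene Psmf1 had none, and the region 20.1 kb from a Psme4 start (chr11:30885135-30885938) lies over the starts of Gpr75 and Asb3.

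In the 19S particle, Psmc6 was the only one of the 6 ATPase genes with a region (chr14:45329372-45330247). Its signal was 179 and 86.6, against 7.14 and 10.1, with a log2 difference of 3.72 ± 0.58 and an adjusted p of 0.017 (limma). Psmc1, Psmc2, Psmc3, Psmc4 and Psmc5 had none, and the region nearest to Psmc3 lay at the start of Slc39a13, past the 3′ end of Psmc3.

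The 4 non-ATPase genes with a region included scaffold and lid subunits. At Psmd3, a lid subunit (chr11:98681973-98683070), the replicates were alike, 153 and 158, against 2.64 and 13.0, and the region was called (log2 difference 4.46 ± 0.85, adjusted p 0.026 by limma). It also covered the start of the noncoding transcript Gm12356. Psmd1, a large scaffold subunit (chr1:86064070-86065003), had 130 and 191, against 40.5 and 0, with an adjusted p of 0.125. Psmd12, a lid subunit (chr11:107479145-107479921), had 181 and 83.0, against 0 and 18.3, with an adjusted p of 0.082. At Psmd11, also of the lid (chr11:80428355-80428996), the Pou4f1 replicates were apart, with values of 176 and 29.2, while the IgG values were 33.3 and 0. Replicate 2 was 0.166 of replicate 1 there and below one of the IgG values, and the adjusted p was 0.208 (limma). If a read covers 80 bases, this is 31.3 and 3.83 reads against 3.50 and 0. Psmd2, Psmd4, Psmd6, Psmd7, Psmd8, Psmd13 and Psmd14 had no region. Psmd4 is a ubiquitin receptor and Psmd14 the deubiquitinase of the lid.

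**Figure D3:**
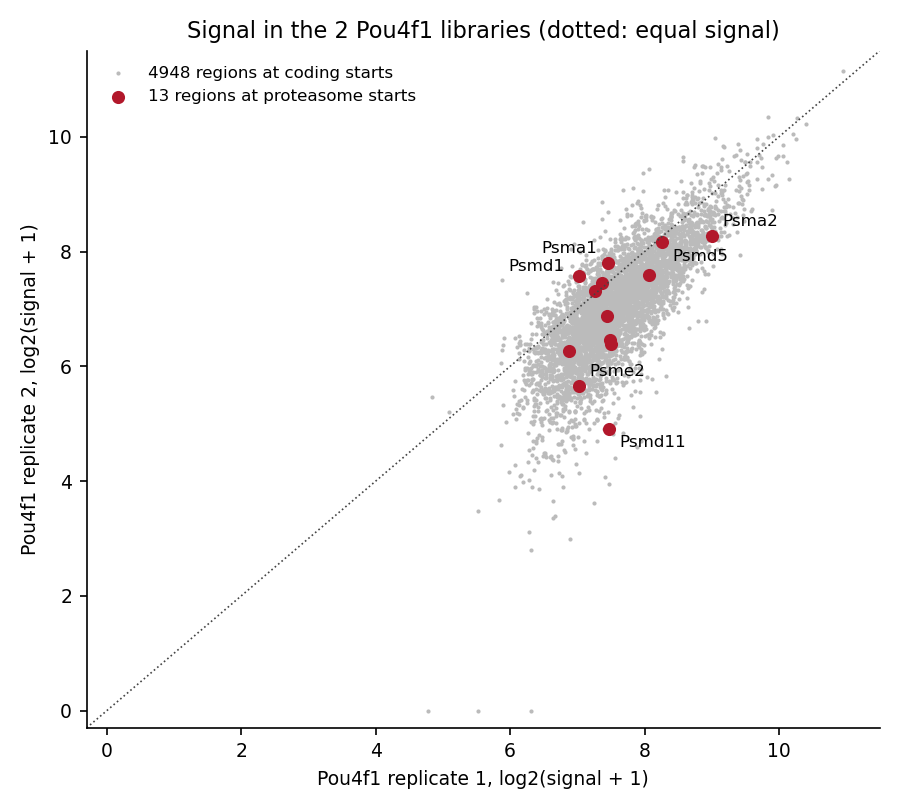
Signal in Pou4f1 replicate 1 (horizontal axis) and replicate 2 (vertical axis), both as log2 of signal + 1, for the 4948 regions at coding starts (grey) and the 13 at proteasome gene starts (red); the dotted line marks equal signal. Of the 13, Psmd11 lies farthest below the line, with 176 in replicate 1 and 29.2 in replicate 2, a place it shares with some of the coding starts.

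Psmd5 and Psmg1 encode chaperones that act while the proteasome is assembled, of the 19S base and of the alpha ring. The Psmd5 region (chr2:34870229-34871634) had a high signal in both replicates, 307 and 287, against 17.4 and 35.1, and was called (log2 difference 3.53 ± 0.54, adjusted p 0.016 by limma). It ranked 619 of 4948 coding starts. It was the only one of the 13 with the POU motif searched here, ATNAATNATT, whose letters occur in 2.65% of whole regions at coding starts. That motif is a fixed string, so POU sites with other letters would be missed. The Psmd5 region holds 2 matches, both on the minus strand and in no annotated exon. They lie within an intron of Psmd5, 464 and 480 bases downstream of the nearest start and 462 and 478 bases from the midpoint of the region, near its downstream end. Capitals mark the matches in the 46 bases around them.
Psmd5, chr2:34870439-34870484, minus strand: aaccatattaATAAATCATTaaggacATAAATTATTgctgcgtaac
The Psmg1 region (chr16:95990493-95991000) was the shortest, 508 bp, with signals of 164 and 174, against 0 and 14.0 (adjusted p 0.054). The assembly factors Psmd9, Psmd10, Psmg2, Psmg3 and Psmg4 had no region. The nearest to Psmd10, on the X chromosome, lay 1349 kb away, the farthest of all.

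**Figure D4:**
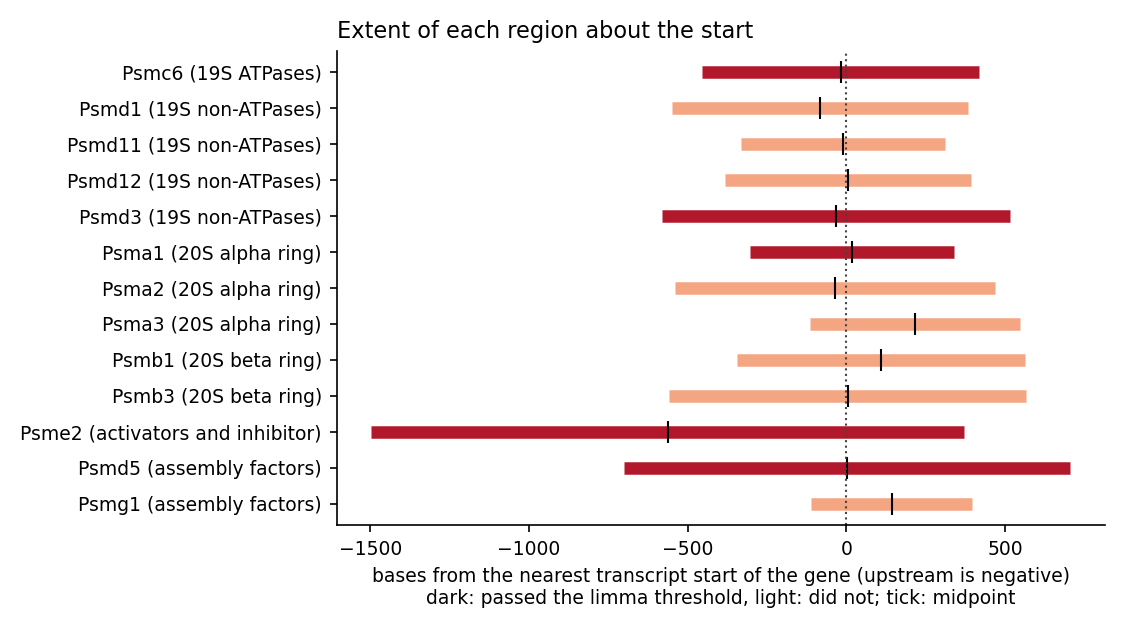
Extent of the 13 regions about the nearest transcript start of the gene (horizontal axis, bases, upstream negative), grouped by role, with dark bars for regions that passed the limma threshold and a tick at each midpoint. All 13 bars span the start, and Psme2 reaches 1496 bases upstream with its midpoint at 563 bases upstream, while the other midpoints lie within 217 bases.

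All 13 regions lay over a start, and the midpoint nearest to the limit of 1 kb was that of Psme2. Over the 36 genes without a region, the midpoint of the nearest one was 3.18 to 1349 kb from a start, with a median of 67.8 kb, and for 19 genes it was beyond 50 kb. No region lay anywhere over the body of these 36 genes, and 4 (Psmb8, Psmc3, Psme1 and Psme4) had one within 10 kb of the gene. The 13 genes with a region had no other over their body.

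Motif letters were counted in the 41 matched windows and in all 16522, on both strands, as a description. The POU letters ATNAATNATT were in 0 of 41 windows and 1.50% of all (in 500 bases to each side, in 2 of 41, 4.88%, and 4.25% of all), and the octamer ATGCAAAT was in 1 (Psmd13, without a region) and 1.66%. CCGGAAGT, the core bound by ETS factors, was in 8 windows (19.5%), beside 5.51% of all. They belonged to Psmd12, which had a region, and to Psmc1, Psmc2, Psmd6, Psmd13, Psme3, Psme4 and Psmg3, which had none, so the letters stood in 1 of 11 windows of genes with a region and 7 of 30 without. Over coding genes the split went the other way, with the letters in 7.12% of windows of genes with a region, beside 5.51% of all. GCATGCGC was in 3 windows (7.32%, Psma2, Psmc5 and Psmg1), beside 3.76%, and AAGATGGC, the core of YY1, in 3 (Psma2, Psmb6 and Psmc5), beside 3.26%. TGACNNNGC was in 6 (14.6%: Psmb5, Psmb6, Psmc6, Psmd9, Psmd12 and Psme4), beside 13.2%, and CCAAT in 14 (34.1%), beside 38.8%. GGGGCGGGG (SP1) was in 6 (14.6%), beside 16.0%, and TGACGTCA (CRE) in 0, beside 2.41%. TGACNNNGC and TGACGTCA share their first letters and can overlap.

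Genes that serve the same pathway under other symbols were described from a list of 25, of which 24 were annotated as coding under the name used (Paaf1 was not). A region stood at 14 of the 24 (58.3%, interval 36.6 to 77.9%), with 15 regions in all, and Pou4f1 was called higher than IgG at 9 of the 15 (60%). Over all coding genes 24.9% had a region, and 62.0% of the regions at coding starts were called. The list was chosen with earlier results of these data known, so its share and interval are a description and test no preference for the pathway. The highest was at Uba1, the enzyme that activates ubiquitin, with 723 and 752, against 2.97 and 0 (log2 difference 8.53 ± 0.87, adjusted p 0.007 by limma). A second Uba1 region had 206 and 171, against 0 and 22.3, and did not pass (adjusted p 0.073 by limma). Rad23b, a shuttle that brings ubiquitinated proteins to the proteasome, had 564 and 535, against 39.0 and 22.4 (adjusted p 0.009 by limma). Zfand5, which binds ubiquitin and the proteasome, had 396 and 315, against 7.71 and 26.4. Nfe2l1 and Nfe2l2, the activators named above, were both called, with 223 and 146, against 12.6 and 3.78, and with 153 and 118, against 14.5 and 7.43. The ubiquitin gene Ubb (164 and 85.2, against 0 and 0), Vcp, Uchl5 and Txnl1 were also called. Adrm1 and Usp14, which sit on the 19S particle, Ube3a, Ube3c and Ubqln1 had a region that did not pass. Sem1, Pomp, Ecpas, Akirin2, Ddi2, Ngly1, Ubqln2, Ubqln4, Nploc4 and Ufd1 had none. Adrm1 and Sem1 are themselves 19S subunits that the symbols leave out.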

How the data were processed

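Per the labels and the study's methods, the authors trimmed and masked the read pairs, used Bowtie2 2.4.5 to align them to mm10, and called regions with SEACR against IgG in relaxed mode. They deposited, per region, a signal averaged over the region for 2 Pou4f1 and 2 IgG libraries. The sources used here give neither its scaling, nor the depth per library, nor whether replicates were pooled for calling. The column named negative control was taken as IgG, since rabbit IgG is the study's only negative control. Signal times length was a whole multiple of a step per library for 100% of values (tolerance 0.05 steps), which sets the precision. The study calls its replicates independent, but neither it nor the labels say whether they came from separate pools of retinas, so p-values measure the spread between these libraries, which may be technical. The H3K9AC library was not analysed here.

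Pou4f1 was compared with IgG by limma 3.58.1 (R 4.3.3) on log2(signal + 1), two-sided, fitted on 8038 regions with Benjamini-Hochberg adjustment and a threshold of 0.05. With 2 libraries a group, an exact permutation test cannot pass. Tested on simulated data, the fit called most regions when nearly all were raised, by a log2 difference of 5.22. It called none of a small minority raised by 3 among unchanged ones, so a region that missed the threshold is not shown to lack a difference. The cases differ in both the number raised and the size of the difference. Genes were those of GENCODE M21, sequence that of GRCm38.p6. Shares have Clopper-Pearson intervals (95%, scipy 1.17.1, Python 3.11.15). Values were given for every proteasome region, and every gene without one was named, by a rule that also takes the immune and tissue-restricted genes with their counterparts and the highest and lowest region of each role. The genes and lists were chosen with earlier results of these data known. Of the list of other genes of the pathway, 2 are not reported here and enter no count of that list. Alternatives changed the pseudocount, IgG scaling, distance, region set and motif window, and left out each library. Leaving out Psme2b was added after seeing the data.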

Additional observations from a re-analysis of the deposited data

How the results depend on the processing

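The number of the 13 proteasome regions called higher than IgG, 5 as reported, was 12 with a pseudocount of 10, 3 and 1 with the IgG libraries taken as 2 and 4 times shallower, 1 with column totals as library sizes, and between 1 and 12 when each library was left out (over all regions the same settings called 92.6, 36.7, 26.8 and 22.7%, and 29.4 to 95.9%). Column totals lowered the median log2 difference of all regions from 5.22 to 2.74 and turned the sign at Psmb3 (-2.41), Psmc6 (-0.18), Psmd5 (-0.46) and Psme2 (-0.83). At Psmb3 the turned difference passed the threshold, with IgG higher (adjusted p 0.045 by limma). These totals are sums over the called regions, not over whole libraries, so they include the signal that is compared. The 4 times shallower IgG turned the sign at Psmb3 (-0.38). Psma1 was called under every setting. Both of its IgG values were 0, which no scaling of the IgG libraries can change. Of the regions at coding starts with both IgG values at 0, 99.7% were called in the main fit. A pseudocount of 0.1 (43.4% of all regions called), a spread trend, a minimum summed signal and a 2-fold minimum each left the same 5 regions called. The share of genes with a region was 10.2% from called regions alone (15.7% of all coding genes) and 8.16% from the regions above the median signal (11.1%). It was 28% with Psmc3ip counted and 27.1% without Psme2b, an alternative chosen after seeing the data. From called regions the constitutive 20S share was 7.14% (1 of 14) and the immune share stayed at 20% (1 of 5), beside 15.7% of all coding genes. At 500 bases the 2 shares were 35.7 and 0%, beside 23.2%. Above the median signal they were 21.4 and 0%, beside 11.1%. Signal times length gave a median ratio of 0.840. In the 200 bases about the midpoint of the 13 regions the octamer share was 0% and the ETS share 7.69%, which is 1 region (0.485 and 3.09% of regions at coding starts), and in 500 bases to each side of the start the CCAAT share was 63.4% and the antioxidant response share 48.8% (all coding genes 70.0 and 34.4%), that of YY1 19.5% and that of NRF1 12.2% (8.11 and 5.64%). The cause of these shifts was not tested. No paired analysis was possible because the IgG columns carry no replicate number. If a read covers 80 bases, the median region held about 1 read in each IgG library, which limits the precision of those values.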
